A study of Mus musculus with 48 samples.

Results

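The unfolded protein response and the integrated stress response were followed through 37 genes, chosen by symbol from a list of their sensors, transcription factors, targets and effectors. The 37 were all present among the 49315 genes of the count table, and all passed the filter on low counts that kept 13986 genes. By role they comprised 7 sensors and transcription factors, 14 endoplasmic reticulum (ER) chaperones and their partners, 4 genes of ER-associated degradation, 7 amino acid genes that the transcription factor ATF4 is known to drive, and 5 stress effectors.

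The cells were bone marrow-derived macrophages, grown from mouse marrow for 7 days with M-CSF (macrophage colony-stimulating factor) and rested overnight without it. Wild-type cells (WT) were compared with LynKO cells, labelled as a knockout of the Src-family kinase Lyn, and with LynAKO and LynBKO cells, in which the labels name the LynA or the LynB isoform as knocked out. Cells of each genotype received M-CSF-free medium alone (NT), 2 ng/mL LPS, a ligand of the receptor TLR4, or 20 ng/mL R848, a ligand of TLR7, each for 2 h. That gave 12 groups of 4 libraries, by the labels 2 male and 2 female in each. The replicate number was taken as the mouse, which makes 16 mice with 1 library per treatment. For the untreated LynBKO libraries that reading is uncertain, as given below. All groups were therefore M-CSF-starved, and the labels give no strain, age or design of the alleles.

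Libraries held 14974764 to 23321447 counted reads. Lyn, the targeted gene, stood at 177 ± 10.4 CPM (read counts scaled to library size; SD, n = 4) in untreated WT cells and at 67.6 ± 4.15 CPM in untreated LynKO cells. The whole-gene count also fell in both isoform knockouts, by 0.58 on the log2 scale in LynAKO and by 0.50 in LynBKO without ligand, and counts per gene do not separate the isoforms. The 8 macrophage markers (Adgre1, Csf1r, Cd68, Itgam, Mertk, Fcgr1, Lyz2 and Cd14) were detected in every group, and their summed level without ligand was 36600 to 44800 CPM in WT cells. It was 30700 to 35700 CPM in LynAKO, 32000 to 35300 CPM for LynBKO and 23700 to 26600 CPM for LynKO. Most of this sum was Lyz2, so it says little of the other markers. The 2 untreated libraries of mouse 4 in LynBKO and in LynKO, labelled female, held both Xist and transcripts of 4 Y-linked genes. Those summed to 132 and 70.6 CPM there, against at most 0.709 CPM in the other 22 female libraries, so the counts of calls that use these 2 libraries are also given without them. In LynBKO the sex labels of numbers 2 and 3 are exchanged between the untreated and the treated libraries, and the sex-linked transcripts followed the label of each library.

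The unfolded protein response is started by 3 sensors in the ER membrane. IRE1 (gene Ern1) splices Xbp1 RNA, ATF6 is cleaved into a transcription factor, and PERK (Eif2ak3) phosphorylates the initiation factor eIF2, which lowers protein synthesis while favouring translation of ATF4. The same eIF2 phosphorylation is set off by other kinases on amino acid shortage, viral RNA or heme shortage, and is then called the integrated stress response. ATF6 and spliced XBP1 drive chaperones and degradation genes, while ATF4 drives amino acid synthesis and uptake. In macrophages both arms are known to be linked to Toll-like receptor signalling. Splicing of Xbp1 and translation of Atf4, the regulated steps, are not measured by counts per gene.

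The promoters of the members were read for elements known from each arm. RefSeq windows of GRCm38.p6, running from 250 bases before to 50 after a gene's start, were held for 33 of the 37 genes. The ER stress element, spelled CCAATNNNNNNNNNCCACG and searched on both strands, was present in 7 of the 12 chaperone windows (Hspa5, Hsp90b1, Calr, Canx, Pdia6, Dnajc3 and Creld2) and in that of Syvn1, against 0.119% of all 32851 windows in the table. The C/EBP-ATF element, spelled TGATGNAA and searched on both strands, was present in the windows of Herpud1, Trib3 and Chac1 and in 1 of the 6 amino acid genes with a window (Asns), against 3.97% of all windows. The element TGACGTGG occurred in no window of the 33 genes and in 0.676% of all. The 6 windows below are printed because their genes carry the results that follow, 3 of them chaperones that stood lower in LynKO cells and 3 of them genes with the C/EBP-ATF element. Capitals mark the element, on the sense strand or, where it lies on the other strand, as its reverse complement. The Hspa5 window (chr2:34771840-34772139, plus strand), the Hsp90b1 window (chr10:86705395-86705694, minus strand), which holds the element on each strand, and the Pdia6 window (chr12:17266339-17266638, plus strand) carry the ER stress element. The Herpud1 window (chr8:94386179-94386478, plus strand), the Asns window (chr6:7693160-7693459, minus strand) and the Chac1 window (chr2:119350992-119351291, plus strand) carry the C/EBP-ATF element.
Hspa5: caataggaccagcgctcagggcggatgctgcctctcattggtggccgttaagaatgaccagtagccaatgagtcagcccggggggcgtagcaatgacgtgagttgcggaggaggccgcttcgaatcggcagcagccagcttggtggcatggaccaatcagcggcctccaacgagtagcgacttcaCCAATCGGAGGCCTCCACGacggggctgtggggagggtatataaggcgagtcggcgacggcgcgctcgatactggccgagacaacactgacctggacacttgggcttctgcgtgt
Hsp90b1: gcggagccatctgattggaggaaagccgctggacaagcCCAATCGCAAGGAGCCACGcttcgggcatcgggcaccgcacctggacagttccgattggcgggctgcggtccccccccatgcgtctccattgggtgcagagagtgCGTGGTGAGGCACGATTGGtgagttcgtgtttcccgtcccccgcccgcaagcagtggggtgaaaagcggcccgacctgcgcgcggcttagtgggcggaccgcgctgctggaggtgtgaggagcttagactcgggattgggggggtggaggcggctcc
Pdia6: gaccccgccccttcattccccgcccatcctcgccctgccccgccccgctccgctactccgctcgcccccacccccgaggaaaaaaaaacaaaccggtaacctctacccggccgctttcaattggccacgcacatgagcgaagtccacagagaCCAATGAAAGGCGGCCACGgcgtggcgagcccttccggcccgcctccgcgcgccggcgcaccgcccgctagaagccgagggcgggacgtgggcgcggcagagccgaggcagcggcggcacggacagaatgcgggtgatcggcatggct
Herpud1: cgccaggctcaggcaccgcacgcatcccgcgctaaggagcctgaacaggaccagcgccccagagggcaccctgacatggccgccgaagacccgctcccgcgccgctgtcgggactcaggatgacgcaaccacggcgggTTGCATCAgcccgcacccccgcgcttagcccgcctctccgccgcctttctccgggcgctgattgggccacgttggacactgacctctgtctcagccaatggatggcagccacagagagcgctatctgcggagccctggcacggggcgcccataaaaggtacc
Asns: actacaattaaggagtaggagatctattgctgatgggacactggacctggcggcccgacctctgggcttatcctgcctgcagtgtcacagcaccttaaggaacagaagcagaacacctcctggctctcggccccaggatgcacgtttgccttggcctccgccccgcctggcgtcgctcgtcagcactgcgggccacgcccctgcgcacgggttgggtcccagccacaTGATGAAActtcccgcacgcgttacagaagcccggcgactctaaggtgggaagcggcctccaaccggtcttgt
Chac1: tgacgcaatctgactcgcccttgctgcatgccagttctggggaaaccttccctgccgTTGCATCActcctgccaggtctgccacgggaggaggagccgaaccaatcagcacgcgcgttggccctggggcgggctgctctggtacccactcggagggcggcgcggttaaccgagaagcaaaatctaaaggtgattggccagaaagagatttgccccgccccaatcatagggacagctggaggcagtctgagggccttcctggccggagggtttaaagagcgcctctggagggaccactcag
In Hspa5 the element lay 65 to 47 bases before the start, and in Pdia6 98 to 80 bases before it. In Asns the C/EBP-ATF element lay 23 to 16 bases before the start. A match is a description of the letters and shows no binding. Only the spellings given above were searched, so a window without a match may hold an element in another form.

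Chaperones and ATF4 targets stood at different levels in untreated cells. Per kilobase of exon, the highest member in untreated WT cells was Calr, the lectin chaperone calreticulin, at 309 ± 31.6 CPM per kb (SD, n = 4). Pdia3, a disulfide isomerase, followed at 199 ± 19.5 CPM per kb, then Hsp90b1 (GRP94) at 145 ± 14.1 and Hspa5 (BiP, the main ER Hsp70) at 143 ± 17.1, which did not differ beyond their spread. The 14 chaperones ran from 12.6 CPM per kb for Dnajb9 to that of Calr, with a median of 45.9. Of the ATF4 amino acid genes Slc3a2, the heavy chain of several amino acid transporters, stood at 84.2 ± 4.47 CPM per kb, while the median of the 7 was 3.54 and Slc7a5, the light chain that pairs with it, stood lowest at 0.796 ± 0.317. Chac1, an enzyme that degrades glutathione, was the lowest of all members at 0.104 ± 0.0533 CPM per kb, which rested on 2 to 7 reads per untreated WT library.

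In WT cells the degradation genes and most ATF4 amino acid genes rose with the ligands, while most chaperones moved little and BiP rose. With LPS 21 members were higher and 7 lower than without ligand (edgeR quasi-likelihood test, Benjamini-Hochberg adjusted over all genes), which is 28 of 37 members against 31.5% of all genes called higher and 30.0% called lower. With R848 19 were higher and 7 lower, against 30.0% and 26.7% of all genes. Of the 4 degradation genes, 4 rose with either ligand, with median log2 fold changes of 0.75 with LPS and 0.77 with R848. Of the 7 ATF4 amino acid genes, 6 rose with LPS and none fell, at a median of 0.73, and 4 rose and 1 fell with R848, at a median of 0.51. Of the 14 chaperones, 5 rose and 2 fell with LPS, at a median of 0.12, and 5 rose and 3 fell with R848, at a median of 0.10. The median over all genes tested was -0.03 with either ligand. The summed level of 4 dendritic cell markers (Flt3, Zbtb46, Xcr1 and Ccr7) was 0.366 to 0.892 CPM in untreated WT libraries, 6.87 to 9.14 with LPS and 4.96 to 9.91 with R848. Most of that sum was Xcr1, with a median of 6.17 CPM over the 48 libraries. The medians of Flt3, Zbtb46 and Ccr7 were 0.49, 0.27 and 0.355 CPM. The part of such cells in these changes was not tested. The LPS and R848 comparisons share their 4 untreated libraries.

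The scaling matters for these counts. When libraries were scaled by their totals alone, without the trimmed-mean (TMM) factors, the median of all genes shifted by -0.54 with LPS and by -0.39 with R848, and the split became 12 higher and 19 lower with LPS and 10 higher and 17 lower with R848. The shares of all genes, here and below, are on the TMM scale and are no background for counts made with library totals. With library totals the signs of Xbp1, Canx, Pdia6, Dnajb11 and Slc3a2 with LPS, and of Canx, Pdia6 and Hyou1 with R848, turned from above 0 to below 0, so the rises given for these genes below hold relative to the TMM scale only. Calls of Sel1l (0.14, adjusted p = 0.102), Asns (0.22, adjusted p = 0.351), Psat1 (0.43, adjusted p = 0.0597) and Phgdh (0.07, adjusted p = 0.769) with LPS kept their sign but were lost on that scale. So were those of Atf6 (0.06, adjusted p = 0.571), Manf (0.05, adjusted p = 0.638), Syvn1 (0.15, adjusted p = 0.208), Asns (0.39, adjusted p = 0.118), Phgdh (0.14, adjusted p = 0.543) and Slc7a5 (0.53, adjusted p = 0.132) with R848. As in any bulk sample, fewer cells expressing a gene and less RNA of it per cell cannot be told apart.

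**Figure D1:**
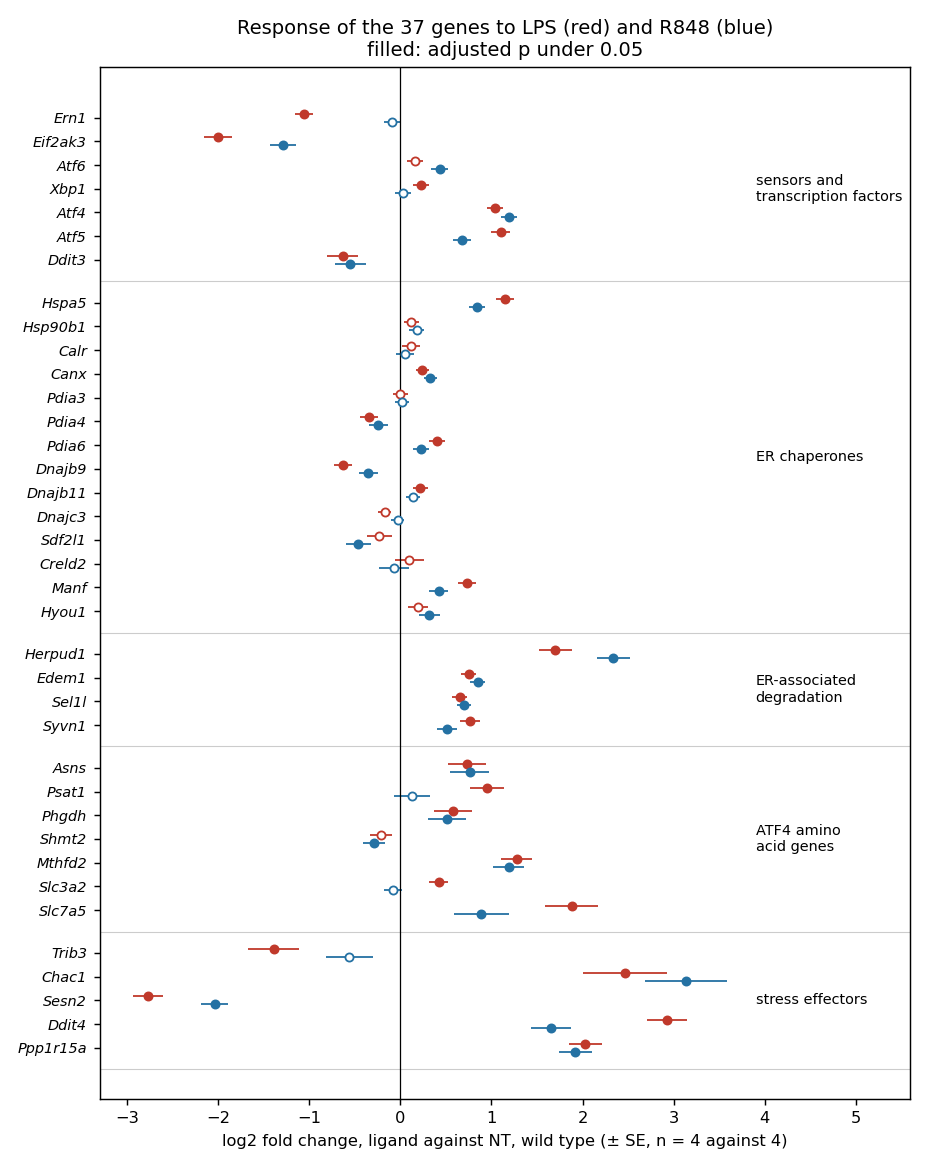
Log2 fold change (x axis) of the 37 members in WT cells with LPS (red) and with R848 (blue) against untreated cells, on the TMM scale, ordered by role; points are edgeR estimates, bars 1 standard error, and filled points passed the test at an adjusted p of 0.05. Herpud1, Slc7a5, Chac1, Ddit4 and Ppp1r15a lie far to the right and Sesn2, Eif2ak3 and Trib3 to the left, while most chaperones lie near 0; with library totals Xbp1, Canx, Pdia6, Dnajb11 and Slc3a2 (LPS) and Canx, Pdia6 and Hyou1 (R848) fall below 0.

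Among the sensors, the RNAs of the kinases fell while that of ATF4 rose. Eif2ak3 (PERK, GRCm38 chr6:70844515-70905245, plus strand) stood at 32.4, 30.3, 32.6 and 29.2 CPM in untreated WT mice 1 to 4, at 10.2, 7.44, 6.58 and 6.63 with LPS, and at 13.5, 11.6, 14.7 and 9.91 with R848. All treated libraries lay below all untreated ones, while the LPS and R848 libraries overlapped only through LPS mouse 1 and R848 mouse 4. The log2 fold change was -2.00 ± 0.15 (SE; adjusted p = 1.17e-09) with LPS and -1.29 ± 0.14 (adjusted p = 3.24e-07) with R848. Ern1 (IRE1) stood at 95.1, 95.1, 110 and 92.2 CPM untreated, at 45.3, 42.3, 50.1 and 48.8 with LPS, and at 78.2, 82.5, 101 and 100 with R848. With LPS the log2 difference was -1.06 ± 0.10 (adjusted p = 2.91e-08) and the ranges did not overlap, while the R848 difference of -0.09 did not pass the test (adjusted p = 0.438). Atf4 itself stood at 94.5, 101, 114 and 101 CPM untreated, at 205, 216, 222 and 194 with LPS and at 199, 225, 243 and 256 with R848, with no overlap between treated and untreated libraries. It rose by 1.04 ± 0.09 (adjusted p = 1.07e-08) with LPS and by 1.19 ± 0.09 (adjusted p = 2.45e-09) with R848.

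The remaining factors moved less or in other directions. Atf5, a related factor that is itself an ATF4 target, stood at 24.3, 23.5, 21.2 and 21.4 CPM untreated, at 54.2, 43.9, 49.9 and 43.9 with LPS and at 32.8, 32.4, 36.5 and 40.6 with R848. The 3 treatments did not overlap, and it rose by 1.10 ± 0.10 with LPS (adjusted p = 2.79e-08) and by 0.68 ± 0.10 with R848 (adjusted p = 1.51e-05). Ddit3 (CHOP), the factor linked to death under lasting stress, stood at 20.7, 20.5, 12.9 and 18.7 CPM untreated, at 13.2, 14.5, 9.59 and 9.05 with LPS and at 10.7, 13.3, 11.6 and 13.1 with R848. It was the opposite of Atf4, with log2 differences of -0.63 ± 0.17 (adjusted p = 0.00343) and -0.55 ± 0.17 (adjusted p = 0.00973). Without mouse 1 the R848 difference of Ddit3 was -0.45 (adjusted p = 0.0624). Xbp1 differed by 0.23 ± 0.09 with LPS (adjusted p = 0.0332), a call lost without mouse 1 (adjusted p = 0.106), mouse 2 (0.0578) or mouse 3 (0.173) and without the filter on low counts (0.0894), and below 0 with library totals. It stood at 175, 163, 167 and 173 CPM untreated and at 218, 180, 207 and 185 with LPS, each LPS library above the untreated ones. Its R848 value, 0.03, did not pass the test. Atf6 rose with R848 by 0.43 ± 0.09 (adjusted p = 7.43e-04) and its LPS value was 0.16 (adjusted p = 0.142).

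BiP stood out among the chaperones. Hspa5 (GRCm38 chr2:34771970-34777547, plus strand) stood at 693, 629, 527 and 570 CPM in untreated WT mice 1 to 4, at 1490, 1330, 1270 and 1260 with LPS and at 966, 1020, 1100 and 1170 with R848. The 3 treatments did not overlap, with LPS highest. The log2 fold change was 1.15 ± 0.10 (adjusted p = 6.89e-09) with LPS and 0.84 ± 0.09 (adjusted p = 5.55e-07) with R848. Manf, a secreted BiP cofactor, stood at 83.3, 80.9, 65.4 and 76.9 CPM untreated, at 155, 117, 115 and 117 with LPS and at 97.8, 97.9, 96.3 and 109 with R848, again without overlap. It rose by 0.73 ± 0.10 with LPS (adjusted p = 4.91e-06) and by 0.42 ± 0.10 with R848 (adjusted p = 0.00173). Hsp90b1 and Calr, the other abundant ER chaperones, gave 0.12 and 0.12 with LPS and 0.18 and 0.05 with R848, and neither passed the test. Hsp90b1 stood at 641, 607, 507 and 575 CPM untreated and at 638, 668, 608 and 595 with LPS, ranges that overlap. Pdia3 gave 0.00 and 0.02.

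Several chaperone calls were small. Canx, the membrane-bound lectin chaperone, differed by 0.24 ± 0.07 with LPS (adjusted p = 0.00521) and by 0.33 ± 0.07 with R848 (adjusted p = 5.27e-04) on the TMM scale, and by -0.27 and -0.04 with library totals. Its LPS call was lost without the filter (adjusted p = 0.064). Pdia6, an isomerase that binds BiP, differed by 0.40 ± 0.09 with LPS (adjusted p = 0.00126) and by -0.12 with library totals. Dnajb9, a J protein that restrains IRE1, stood at 30.5, 32.5, 31.3 and 34.3 CPM untreated, at 18.8, 21.1, 22.5 and 20.1 with LPS and at 22.8, 21.6, 27.1 and 27.4 with R848. Every treated library lay below every untreated one, with differences of -0.63 ± 0.10 (adjusted p = 2.89e-05) and -0.35 ± 0.10 (adjusted p = 0.00562), and without mouse 2 the R848 difference of Dnajb9 was -0.29 (adjusted p = 0.0806). Pdia4 was lower with LPS, by -0.34 ± 0.10 (adjusted p = 0.00642), and with R848 (-0.24, adjusted p = 0.0499), where the call was lost without mouse 1 (0.0603), 2 (0.0753) or 4 (0.122). Sdf2l1 was lower with R848, at -0.46 ± 0.14 (adjusted p = 0.0112). With the mouse as a block it was also called lower with LPS (-0.24, adjusted p = 0.0288), and Hsp90b1 was called higher with R848 (0.19, adjusted p = 0.0396, a sign that turns with library totals). The calls of Dnajb11 with LPS (0.22, adjusted p = 0.0247), Pdia6 with R848 (0.23, adjusted p = 0.0458) and Hyou1 with R848 (0.32, adjusted p = 0.0186) turned sign with library totals, and each also rested on single mice. Dnajb11 lost its call without mouse 1 (adjusted p = 0.0748), 2 (0.0534) or 3 (0.132) or the filter (0.121), Pdia6 without mouse 2 (0.068), 3 (0.292) or 4 (0.136), without the filter (0.136) and by DESeq2 (0.0508), and Hyou1 without mouse 2 (0.0508), 3 (0.0846) or 4 (0.114). Dnajc3 (-0.17 with LPS, -0.03 with R848) and Creld2 (0.10, -0.07) did not pass the test.

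All 4 degradation genes rose with both ligands. Herpud1 (HERP, a scaffold of the degradation complex, GRCm38 chr8:94386438-94395377, plus strand) stood at 22.4, 17.6, 18.8 and 25.3 CPM untreated, at 87.4, 66.5, 66.1 and 50.3 with LPS and at 83, 80.1, 123 and 134 with R848. No treated library fell to the untreated range. Its log2 fold change was 1.70 ± 0.18 (adjusted p = 2.24e-07) with LPS and 2.34 ± 0.18 (adjusted p = 4.85e-09) with R848. Edem1, which directs misfolded glycoproteins to degradation, stood at 222, 215, 228 and 230 CPM untreated, at 372, 353, 373 and 390 with LPS and at 380, 357, 408 and 436 with R848, and rose by 0.75 ± 0.08 (adjusted p = 1.24e-07) and 0.85 ± 0.08 (adjusted p = 3.14e-08). Syvn1 went from 51.7, 47.7, 44.9 and 49.7 CPM to 106, 73.8, 73.6 and 72.4 with LPS and 67, 62.2, 64.9 and 77.9 with R848. For Edem1 and Syvn1 alike every treated library lay above every untreated one. Sel1l and Syvn1 (HRD1), the adaptor and the ubiquitin ligase of the complex, rose by 0.65 ± 0.08 and 0.76 ± 0.11 with LPS (adjusted p = 6.36e-07 and 1.43e-05). With R848 these were 0.70 ± 0.08 and 0.51 ± 0.11 (adjusted p = 3.9e-07 and 8.48e-04).

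Among the ATF4 amino acid genes Slc7a5 and Mthfd2 rose most with LPS. Slc7a5 (GRCm38 chr8:121881150-121907694, minus strand), the LAT1 transporter of large neutral amino acids, stood at 3.02, 4.18, 3.25 and 1.35 CPM in untreated WT mice 1 to 4, at 9.46, 11, 8.59 and 13.8 with LPS and at 3, 4.91, 7.72 and 5.93 with R848. The LPS libraries all lay above the untreated ones, while R848 mouse 1 lay inside the untreated range. The log2 fold change was 1.88 ± 0.29 (adjusted p = 2.03e-05) with LPS. With R848 it was 0.89 ± 0.30 (adjusted p = 0.0165), which became 0.69 (adjusted p = 0.113) without mouse 3 and 0.60 (adjusted p = 0.0903) without mouse 4. Mthfd2, a mitochondrial folate enzyme, stood at 11.3, 13.9, 13.4 and 10.9 CPM untreated, at 27.4, 32.9, 33.3 and 25.4 with LPS and at 18.5, 23.6, 37.3 and 31.5 with R848. Treated libraries lay above untreated ones, and the LPS range lay inside the R848 range. It rose by 1.28 ± 0.17 (adjusted p = 4.15e-06) and 1.19 ± 0.17 (adjusted p = 1.31e-05).

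The serine and asparagine genes were less uniform. Psat1, of serine synthesis, stood at 7.54, 15, 12.5 and 9.69 CPM untreated, at 19.9, 23.2, 22 and 20.4 with LPS and at 12.1, 12.8, 15.4 and 7.81 with R848, and all 4 LPS libraries cleared the untreated range while 3 of the R848 libraries did not. It rose with LPS (0.95 ± 0.19, adjusted p = 3.45e-04), and its R848 value was 0.13 (adjusted p = 0.586). Asns, asparagine synthetase, stood at 11.6, 11.3, 13.3 and 9.1 CPM untreated, at 11.8, 17.3, 25.5 and 19.9 with LPS and at 14.3, 14.6, 25.4 and 21.1 with R848, with LPS mouse 1 inside the untreated range. It rose by 0.73 ± 0.21 with LPS (adjusted p = 0.00601) and 0.76 ± 0.21 with R848 (adjusted p = 0.0054), and without mouse 4 both calls were lost (0.61, adjusted p = 0.0554, and 0.61, adjusted p = 0.0622). Phgdh, which starts serine synthesis, gave 0.58 ± 0.21 (adjusted p = 0.0223) and 0.51 (adjusted p = 0.0463). Its LPS call was lost without mouse 3 (0.39, adjusted p = 0.205) and its R848 call without mouse 3 (adjusted p = 0.241) or 4 (0.361), with other size factors (0.0516), without the filter (0.0514) or in 1 model of all libraries (0.0534). Slc3a2 rose with LPS by 0.42 ± 0.10 on the TMM scale (adjusted p = 0.00112) and was at -0.10 with library totals. Its R848 value, -0.08, did not pass. Shmt2, a mitochondrial serine hydroxymethyltransferase, was the 1 gene of this role called lower, with R848 (-0.29, adjusted p = 0.0441), and lost that call without mouse 1 (adjusted p = 0.0997), 2 (0.139) or 4 (0.0903).

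The effectors moved furthest and in both directions. Sesn2 (sestrin 2, a leucine sensor that restrains mTORC1, GRCm38 chr4:132492032-132510501, minus strand) stood at 49.5, 39, 34.8 and 34.1 CPM untreated, at 7.58, 5.17, 5.29 and 4.92 with LPS and at 8.88, 9.15, 11.2 and 8.39 with R848. The 3 treatments did not overlap, and the log2 fold changes were -2.77 ± 0.16 (adjusted p = 3.64e-11) and -2.04 ± 0.15 (adjusted p = 1.99e-09). Ddit4 (REDD1), another mTORC1 inhibitor, moved the other way, from 5.12, 4.5, 5.31 and 4.42 CPM to 41.4, 24.3, 52.7 and 27.8 with LPS and 14.5, 10.7, 19.1 and 15.5 with R848. It rose by 2.93 ± 0.22 (adjusted p = 2.22e-09) and by 1.65 ± 0.22 (adjusted p = 5.49e-06). Ppp1r15a (GADD34), which returns eIF2 to its unphosphorylated form, went from 18, 16.5, 17 and 19.7 CPM to 93.3, 60.2, 64.7 and 72 with LPS and 57.1, 44.1, 75.8 and 87.5 with R848. Untreated libraries lay below all others, with rises of 2.03 ± 0.18 (adjusted p = 1.41e-08) and 1.92 ± 0.18 (adjusted p = 4.36e-08). Chac1 went from 0.14, 0.284, 0.0764 and 0.183 CPM to 0.938, 0.672, 1.07 and 1.21 with LPS and 1.1, 2.21, 1.49 and 1.3 with R848, all above the untreated range. It rose by 2.47 ± 0.46 (adjusted p = 1.57e-04) and 3.14 ± 0.45 (adjusted p = 1.09e-05) from its few reads. Trib3, a pseudokinase that damps ATF4, was lower with LPS (-1.39 ± 0.28, adjusted p = 2.83e-04). Its R848 value of -0.56 (adjusted p = 0.078) passed with the mouse as a block (adjusted p = 0.0356).

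**Figure D2:**
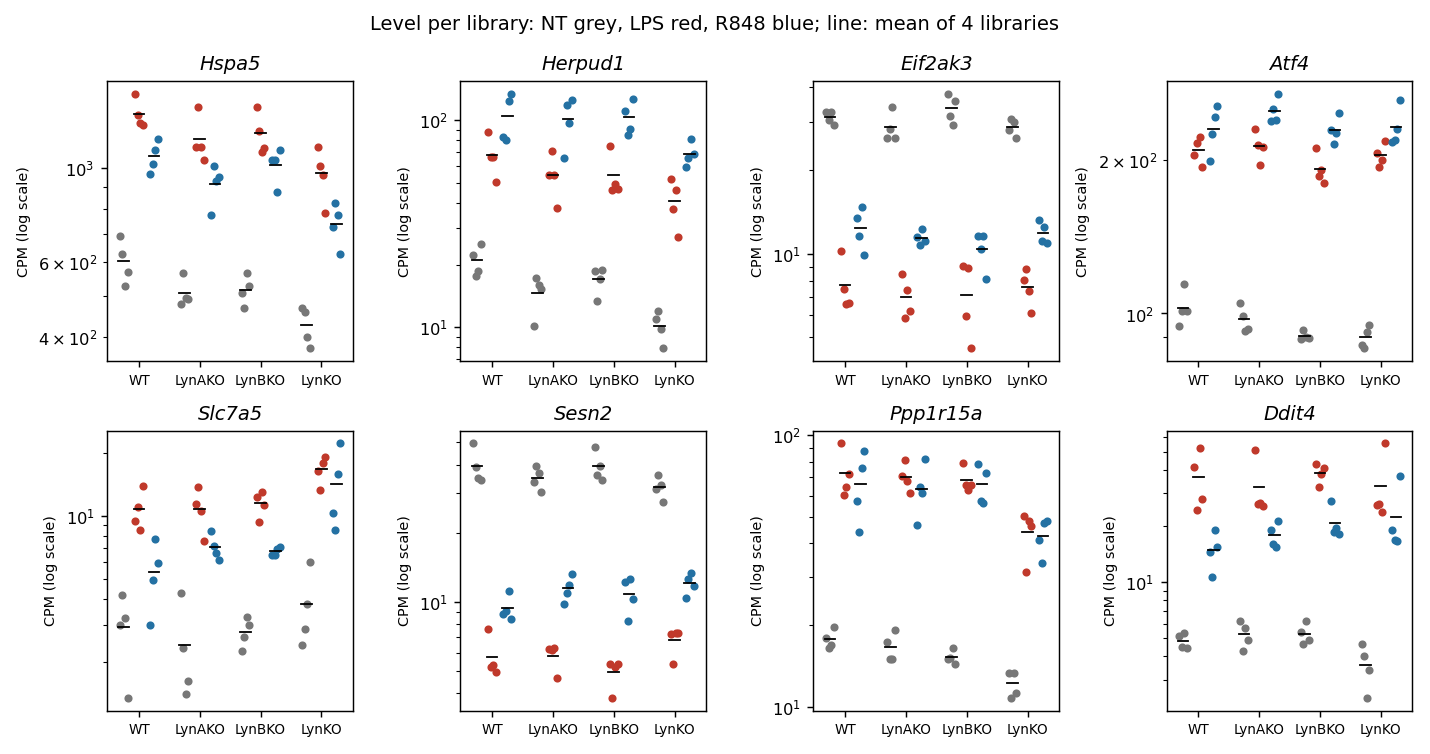
CPM (log axis) of 8 members in the 48 libraries by genotype, with untreated libraries in grey, LPS in red and R848 in blue, each point 1 library and each line the mean of 4. Hspa5, Herpud1, Atf4, Slc7a5, Ppp1r15a and Ddit4 rise and Eif2ak3 and Sesn2 fall with both ligands in each genotype, and the LynKO means of Hspa5 and Herpud1 are the lowest of the 4 genotypes with each treatment, though single libraries overlap with those of the isoform knockouts.

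The 2 ligands differed for 12 members in WT cells, 5 higher and 7 lower with R848 than with LPS, against 10.0% and 10.9% of all genes. With library totals the split was 13 and 5, and the median of all genes shifted by 0.18. The doses differ and no dose series was run, so the ligands are set side by side at these doses only. Ern1 was higher with R848 by 0.97 ± 0.10 (adjusted p = 7.54e-07), and the WT libraries did not overlap. Ddit4 was lower by -1.27 ± 0.21 (adjusted p = 2.16e-04), Psat1 by -0.82 ± 0.20 (adjusted p = 0.00582), Slc3a2 by -0.50 ± 0.10 (adjusted p = 0.0011) and Atf5 by -0.42 ± 0.10 (adjusted p = 0.00562). These 5 calls held when each mouse was left out.

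The other 7 of these calls rested on single mice. Eif2ak3 (0.71 ± 0.15, adjusted p = 0.00221) became 0.54 (adjusted p = 0.0523) without mouse 3, and Sesn2 (0.73 ± 0.16, adjusted p = 0.00349) became 0.59 (adjusted p = 0.0516) without the same mouse. Herpud1 (0.65 ± 0.17, adjusted p = 0.0123) became 0.54 (adjusted p = 0.106) without mouse 3 and 0.39 (adjusted p = 0.11) without mouse 4. Hspa5 (-0.31 ± 0.09, adjusted p = 0.0254) became -0.23 (adjusted p = 0.0877) without mouse 1 and -0.29 (adjusted p = 0.152) without mouse 2. Slc7a5 (-0.99 ± 0.29, adjusted p = 0.0192) became -0.86 (adjusted p = 0.0771) and -0.93 (adjusted p = 0.09) without those mice. Manf (-0.32, adjusted p = 0.0309) lost its call without mouse 1 (adjusted p = 0.126), 2 (0.0984) or 3 (0.0515). Trib3 (0.84 ± 0.29, adjusted p = 0.0484) lost it without any 1 mouse (adjusted p from 0.0698 to 0.178), with other size factors (0.0555) and without the filter (0.0546). With the mouse as a block 2 more members were called, Atf6 (0.26, adjusted p = 0.0146) and Dnajb9 (0.27, adjusted p = 0.0452).

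Most of these members also responded to the ligands in the knockouts. With LPS 19 members rose and 8 fell in LynAKO (30.4% and 30.3% of all genes), 22 rose and 8 fell in LynBKO (33.9% and 33.4%), and 19 rose and 8 fell in LynKO (31.0% and 30.7%). Across the 4 genotypes, whose untreated controls are separate, 19 members were called higher with LPS each time and 7 lower each time, against 26.5% and 23.4% of all genes. The 19 were Atf4, Atf5, the 4 degradation genes, the amino acid genes Asns, Psat1, Phgdh, Mthfd2, Slc3a2 and Slc7a5, the effectors Chac1, Ddit4 and Ppp1r15a, and 4 of the chaperones (Hspa5, Manf, Canx and Pdia6), of which Canx and Pdia6 turned sign with library totals in each genotype, Slc3a2 in all but LynBKO and Sel1l in LynBKO. The 7 were Ern1, Eif2ak3, Ddit3, Pdia4, Dnajb9, Trib3 and Sesn2. With R848 18 rose and 6 fell in LynAKO (29.0% and 26.9% of all genes), 22 and 5 in LynBKO (31.3% and 32.2%), and 17 and 5 in LynKO (28.4% and 27.0%). Called higher with R848 in all 4 genotypes were 16 members, of which Canx turned sign with library totals in each, and Eif2ak3, Dnajb9 and Sesn2 were lower in all 4, against 23.7% and 19.3% of all genes. Library totals gave 12 higher and 19 lower with LPS in LynAKO, 13 and 19 in LynBKO and 12 and 20 in LynKO. With R848 they gave 13 and 15, 14 and 17, and 13 and 15. The shares of all genes above are on the TMM scale and do not apply to these counts.

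Each genotype's own values are set side by side for 4 members. In the order WT, LynAKO, LynBKO, LynKO, the log2 fold change of Hspa5 with LPS was 1.15, 1.20, 1.21 and 1.18. Sesn2 with LPS gave -2.77, -2.59, -3.01 and -2.24. Slc7a5 with R848 gave 0.89, 1.57, 1.26 and 1.89, and Phgdh with LPS 0.58, 1.39, 1.30 and 1.31. No difference of these responses from that of WT passed the edgeR test of response differences over all 48 libraries. That of Slc7a5 with R848 in LynKO passed only without the filter on low counts (adjusted p = 0.00747). For Phgdh with LPS those differences were 0.82, 0.73 and 0.75 in LynAKO, LynBKO and LynKO, the last with an adjusted p of 0.51. R848 differed from LPS for 11 members in LynAKO (7 higher, 4 lower; 17.6% of all genes called in either direction), for 14 in LynBKO (9 and 5; 26.5%) and for 9 in LynKO (5 and 4; 15.9%). With library totals these splits were 12 and 2, 16 and 4, and 9 and 1. Ern1, Eif2ak3, Herpud1, Trib3 and Sesn2 were higher, and Hspa5, Psat1 and Slc3a2 lower, with R848 than with LPS in all 4 genotypes (3.43% and 7.34% of all genes). Without the untreated mouse 4 libraries that held both sex markers, LPS called 28 members in LynBKO (20 higher, 8 lower) and 26 in LynKO (18 and 8), and R848 27 (22 and 5) and 21 (15 and 6).

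With the mouse as a block, 9 calls were gained in LynAKO, 3 in LynBKO and 9 in LynKO, where libraries of a mouse pair except between treated and untreated LynBKO. In LynAKO these were Dnajb11 (0.17, adjusted p = 0.0272) and Dnajc3 (-0.19, adjusted p = 0.0116) with LPS and Hsp90b1 (0.15, adjusted p = 0.0258), Pdia6 (0.22, adjusted p = 0.00981) and Dnajb11 (0.19, adjusted p = 0.0141) with R848. In LynKO they were Dnajc3 with LPS (-0.24, adjusted p = 0.00596), and with R848 Ern1 (-0.32, adjusted p = 0.00514), Dnajc3 (-0.16, adjusted p = 0.0463), Sdf2l1 (-0.19, adjusted p = 0.0344) and Hyou1 (0.20, adjusted p = 0.0114). In LynBKO Ern1 (-0.27, adjusted p = 0.0496) and Sdf2l1 (-0.27, adjusted p = 0.0299) were lower with R848 and Atf5 (-0.40, adjusted p = 0.0375) was lower with R848 than with LPS. Between the ligands the LynAKO gains were Atf6 (0.22, adjusted p = 0.00848), Dnajc3 (0.22, adjusted p = 0.0133), Hyou1 (0.26, adjusted p = 0.00961) and Slc7a5 (-0.59, adjusted p = 0.0218). In LynKO they were Xbp1 (-0.24, adjusted p = 0.017), Atf4 (0.17, adjusted p = 0.0274), Chac1 (0.70, adjusted p = 0.0451) and Ddit4 (-0.55, adjusted p = 0.0135). With library totals the rises among these calls against untreated cells turned sign, to -0.32 and -0.15 for Dnajb11, -0.20 for Hsp90b1 and -0.12 for Pdia6 in LynAKO and to -0.10 for Hyou1 in LynKO. Called in all 4 genotypes with the block were again 19 higher and 7 lower with LPS, and 18 higher and 4 lower with R848, adding Sdf2l1 to the lower ones and to the higher ones Pdia6 and Hyou1, which with library totals lay between -0.14 and 0.03. The Sdf2l1 call in LynBKO came only with the block, which there joins untreated and treated libraries that did not pair. Its place among the calls of all 4 genotypes is therefore uncertain. Between the ligands Ddit4 joined the 3 members lower with R848 in all 4.

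LynKO cells held less RNA of most ER chaperones than WT cells, with and without ligand. Without ligand 14 members were lower and 0 higher in LynKO than in WT cells (edgeR quasi-likelihood test), against 4.47% of all genes called lower and 5.43% called higher. With LPS 13 were lower and 1 higher (4.06% and 4.43% of all genes), and with R848 11 were lower and 3 higher (2.74% and 3.19%). With library totals the splits were 13 lower and 0 higher, 9 and 4, and 6 and 3, as the median of all genes shifted by 0.07, 0.12 and 0.11. That scale ended the calls of Syvn1 without ligand (-0.19, adjusted p = 0.0783), of Dnajc3 (-0.24, adjusted p = 0.0869), Creld2 (-0.34, adjusted p = 0.0599), Edem1 (-0.21, adjusted p = 0.0771) and Syvn1 (-0.29, adjusted p = 0.0756) with LPS, and of Calr (-0.23, adjusted p = 0.0654), Canx (-0.22, adjusted p = 0.0504), Pdia3 (-0.20, adjusted p = 0.109), Pdia4 (-0.24, adjusted p = 0.0872) and Dnajc3 (-0.32, adjusted p = 0.056) with R848. Of the 14 chaperones, 10, 8 and 8 were lower with NT, LPS and R848, with medians of -0.32, -0.38 and -0.33, and all 14 estimates lay below 0 each time, except that with library totals Dnajb11 with R848 stood at 0.02. Of the 7 ATF4 amino acid genes none was lower, 0, 1 and 3 were higher, and the medians were 0.28, 0.42 and 0.47. The 3 comparisons use separate libraries of the same 8 mice. The 15 calls without ligand when LynKO mouse 4 was left out there were again all lower.

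Members lower with each treatment were 7, namely Hspa5, Hsp90b1, Calr, Pdia6, Dnajc3, Xbp1 and Syvn1. Hspa5 stood at 470, 459, 401 and 377 CPM in untreated LynKO mice 1 to 4, below all 4 WT libraries, at 1120, 1010, 963 and 784 with LPS, and at 724, 825, 776 and 629 with R848. The treated ranges also lay wholly below the WT ranges. The log2 difference was -0.49 ± 0.09 (adjusted p = 7.96e-04), -0.44 ± 0.10 (adjusted p = 0.0118) and -0.53 ± 0.10 (adjusted p = 0.00433). Hsp90b1 stood at 451, 456, 410 and 381 CPM in untreated LynKO cells, at 517, 486, 450 and 356 with LPS and at 478, 520, 470 and 394 with R848. Each LynKO range lay below the WT range, with differences of -0.44, -0.45 and -0.48 (adjusted p = 4.91e-04, 0.00623 and 0.00282). Pdia6 stood at 151, 144, 128 and 132 CPM in untreated LynKO cells against 206, 216, 168 and 194 in WT. It gave -0.49 ± 0.08, -0.61 ± 0.10 and -0.47 ± 0.09 (adjusted p = 3.31e-04, 6.64e-04 and 0.0042), and Calr -0.42, -0.40 and -0.33 (adjusted p = 6.49e-04, 0.0112 and 0.0188). Xbp1, which encodes a transcription factor that drives many chaperone genes, stood at 139, 136, 128 and 124 CPM untreated in LynKO against 175, 163, 167 and 173 in WT, and differed by -0.35, -0.46 and -0.50 (adjusted p = 0.00125, 0.00719 and 0.00881). The calls of Hspa5, Hsp90b1, Calr, Pdia6 and Xbp1 held when each mouse was left out, with each treatment.

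The calls of Dnajc3 and Syvn1 depended on single mice. Dnajc3, a J protein that also inhibits PERK, gave -0.32, -0.34 and -0.42. Its LPS call was lost without WT mouse 2 (adjusted p = 0.0516) or 4 (0.0508) or LynKO mouse 4 (0.0691), and its R848 call without WT mouse 2 (0.0521) or 3 (0.0581) or LynKO mouse 4 (0.0555). Syvn1 stood at 41.4, 39.9, 38.8 and 41.4 CPM in untreated LynKO cells against 44.9 to 51.7 in WT. It gave -0.25 (adjusted p = 0.0181), -0.40 (adjusted p = 0.0425) and -0.40 (adjusted p = 0.0108). Its NT call was lost without WT mouse 1 (adjusted p = 0.0706) or 4 (0.0602) or LynKO mouse 3 (0.0589), without the filter (0.0506) and in 1 model of all libraries (0.0948), and its LPS call without WT mouse 1 (0.173) or LynKO mouse 2 (0.0987), 3 (0.0553) or 4 (0.111).

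Herpud1 and Ppp1r15a, genes that ligands raise, were also lower in LynKO cells. Herpud1 stood at 11, 12, 9.85 and 7.92 CPM in untreated LynKO mice, at 52, 37.4, 46.2 and 27.3 with LPS and at 59.5, 65.3, 81.5 and 68.4 with R848. The untreated ranges of LynKO and WT did not overlap, with a log2 difference of -1.03 ± 0.16 (adjusted p = 2.52e-04). The LPS difference of -0.71 ± 0.20 (adjusted p = 0.0317) lost its call without WT mouse 1 (adjusted p = 0.126), 2 (0.0515) or 3 (0.0541) or LynKO mouse 2 (0.0819) or 4 (0.0966), and the R848 difference was -0.61 (adjusted p = 0.0658). Ppp1r15a stood at 13.4, 10.8, 13.4 and 11.3 CPM untreated, at 50.5, 31.5, 48.4 and 46.5 with LPS and at 41.1, 33.8, 47.6 and 48.2 with R848. It was lower without ligand and with LPS (-0.53 ± 0.10, adjusted p = 0.00194, and -0.69 ± 0.14, adjusted p = 0.00377), and its R848 value was -0.63 (adjusted p = 0.0578). Edem1 was lower with LPS (-0.31, adjusted p = 0.0169; -0.25, adjusted p = 0.0601, without LynKO mouse 4) and with R848 (-0.44, adjusted p = 0.00552).

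Of the remaining chaperones, Manf stood at 52.1, 52.6, 55 and 53 CPM in untreated LynKO cells, below every WT library. It was lower without ligand (-0.51 ± 0.08, adjusted p = 1.38e-04) and with LPS (-0.58 ± 0.11, adjusted p = 0.00259), and its R848 value was -0.35 (adjusted p = 0.0808). Sdf2l1, a BiP cochaperone, was lower without ligand (-0.49, adjusted p = 0.00345) and with LPS (-0.53, adjusted p = 0.0124), the latter lost without WT mouse 1 (adjusted p = 0.0541). Canx was lower without ligand (-0.27, adjusted p = 0.00748) and with R848 (-0.32, adjusted p = 0.0131). Creld2, another disulfide-handling ER protein, was lower with LPS alone (-0.45, adjusted p = 0.0228), and not without WT mouse 1 (adjusted p = 0.0837) or LynKO mouse 4 (0.0605). Pdia3 and Pdia4 were called without ligand and with R848. Their R848 calls were the weakest, as that of Pdia3 (-0.30, adjusted p = 0.031) was lost without WT mouse 1 (0.0592), 2 (0.0712) or 4 (0.0772) or LynKO mouse 1 (0.0556), 3 (0.0561) or 4 (0.0857), and that of Pdia4 (-0.34, adjusted p = 0.0249) without WT mouse 1 (0.0519), 2 (0.0648) or 4 (0.0674) or LynKO mouse 3 (0.052) or 4 (0.0685). Hyou1, Dnajb9 and Dnajb11 passed with no treatment.

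No ATF4 amino acid gene was called lower in LynKO cells, and Slc7a5 was higher with both ligands. Slc7a5 stood at 2.42, 2.88, 3.8 and 6.04 CPM in untreated LynKO mice 1 to 4, at 16.4, 13.3, 17.8 and 19 with LPS and at 10.3, 8.53, 15.8 and 22.1 with R848. Without ligand the genotypes overlapped (0.38, not called), with LPS only LynKO mouse 2 lay below the highest WT library, and with R848 no libraries overlapped. The R848 difference was 1.40 ± 0.26 (adjusted p = 0.0042) and held when each mouse was left out. The LPS difference was 0.65 ± 0.17 (adjusted p = 0.0226), and was lost without WT mouse 1 (0.59, adjusted p = 0.0735) or 3 (0.56, adjusted p = 0.0688) or LynKO mouse 3 (0.61, adjusted p = 0.0587) or 4 (0.57, adjusted p = 0.0707) and in 1 model of all libraries (0.63, adjusted p = 0.126). Psat1 and Shmt2 were higher with R848 only, at 0.56 ± 0.16 (adjusted p = 0.0444) and 0.56 ± 0.14 (adjusted p = 0.0255). Psat1 lost its call without WT mouse 1 (adjusted p = 0.0834), 2 (0.0598) or 4 (0.11) or LynKO mouse 2 (0.0607), 3 (0.0775) or 4 (0.144), and Shmt2 without WT mouse 1 (0.0585) or 3 (0.0765) or LynKO mouse 4 (0.0869). Asns and Mthfd2 gave 0.47 and 0.46 with R848 without passing the test, and Slc3a2 gave -0.04. Without ligand 2 of the 7 genes, Slc3a2 and Phgdh, lay below 0 and 5 above, none called. Slc3a2 stood at 248, 254, 265 and 269 CPM in untreated LynKO mice 1 to 4. The WT libraries stood at 303, 315, 292 and 278 CPM, without overlap. Phgdh stood at 2.9, 3.07, 3.46 and 5.46 CPM against 6.23, 6.16, 3.93 and 3.51, ranges that overlap.

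The kinases and ATF4 did not pass the test between these genotypes. Eif2ak3 gave -0.10, 0.00 and -0.06 with NT, LPS and R848, and Atf4 gave -0.18 (adjusted p = 0.0808), -0.01 and 0.01. Atf4 RNA stood at 86.8, 85.4, 91.8 and 95.1 CPM in untreated LynKO cells against 94.5 to 114 in WT. Ern1, Atf6, Atf5, Ddit3, Trib3, Sesn2, Ddit4 and Chac1 also passed with no treatment, although Chac1 stood at 0.86, 0.93 and 0.97.

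**Figure D3:**
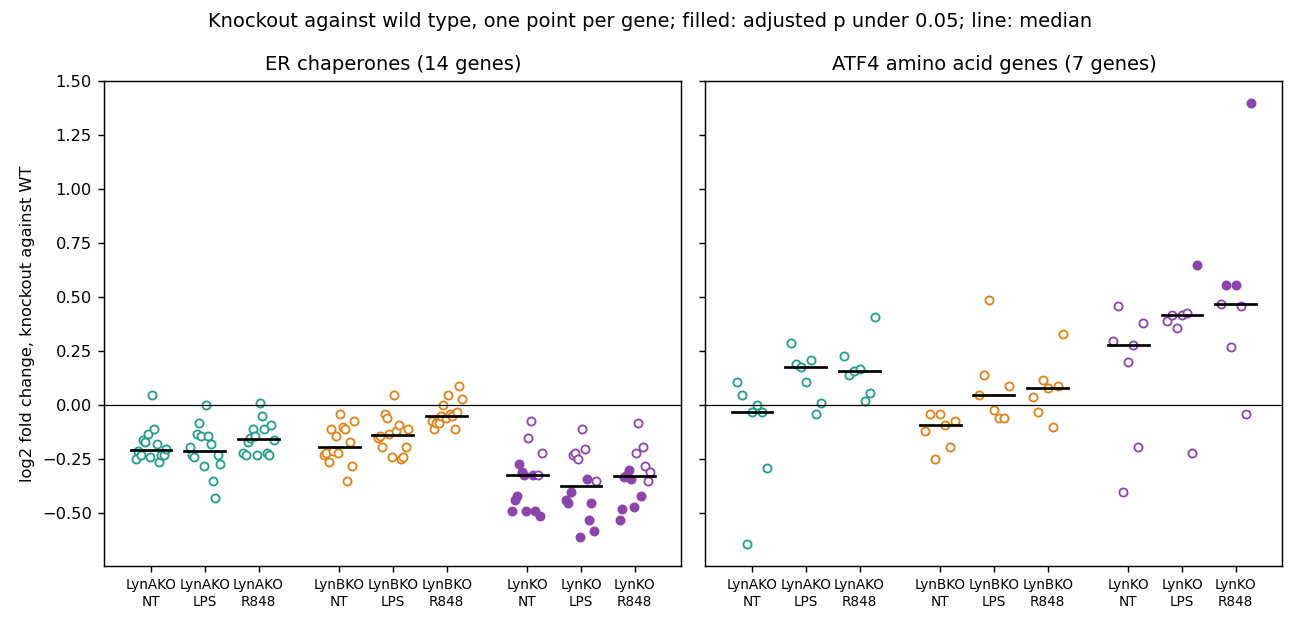
Log2 difference from WT (y axis) of the 14 ER chaperones and the 7 ATF4 amino acid genes in each knockout and treatment, 9 comparisons that share 4 WT libraries per treatment; each point is 1 gene, filled where it passed the test, and the line is the median. The LynKO chaperones all lie below 0 on the TMM scale (with library totals Dnajb11 with R848 is at 0.02; medians -0.32, -0.38 and -0.33) and the LynKO amino acid genes have medians of 0.28, 0.42 and 0.47, while no isoform knockout has a filled point.

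The contrast of the roles can be read within each library. The difference between the mean log2 CPM of the 14 chaperones and that of the 7 amino acid genes was 3.44 ± 0.25 (SD, n = 4) in untreated WT cells, 2.77 ± 0.17 with LPS and 3.11 ± 0.25 with R848. In LynKO cells it was 2.95 ± 0.32, 2.05 ± 0.23 and 2.27 ± 0.43. The LynKO libraries ran from 1.86 to 2.38 with LPS and from 1.73 to 2.74 with R848, against 2.60 to 3.00 and 2.77 to 3.35 in WT, without overlap. Without ligand the ranges touched, 2.52 to 3.24 against 3.23 to 3.74. Without mouse 4 the untreated LynKO level was 3.10 ± 0.18 (SD, n = 3) and ran from 2.89 to 3.24, and the untreated LynBKO level was 3.34 ± 0.07 (SD, n = 3). In LynAKO the values were 3.38 ± 0.21, 2.43 ± 0.17 and 2.76 ± 0.15, and in LynBKO 3.36 ± 0.07, 2.55 ± 0.14 and 2.97 ± 0.10, between WT and LynKO each time. With R848 both sides contributed. The chaperone mean was 7.39 ± 0.07 in WT and 7.06 ± 0.07 in LynKO, and the amino acid mean 4.28 ± 0.25 and 4.79 ± 0.36. With LPS these were 7.44 ± 0.13 and 7.05 ± 0.13, and 4.66 ± 0.05 and 5.00 ± 0.18. Without ligand the chaperone means were 7.31 ± 0.12 and 6.96 ± 0.09, while the amino acid means, 3.87 ± 0.23 and 4.01 ± 0.26, lay within their spread. There LynKO mice 1 to 3 stood at 3.83, 3.85 and 3.98 and mouse 4 at 4.38, against 3.57 to 4.12 in WT. These are mean levels over members chosen with earlier results known, and no test is given for them.

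**Figure D4:**
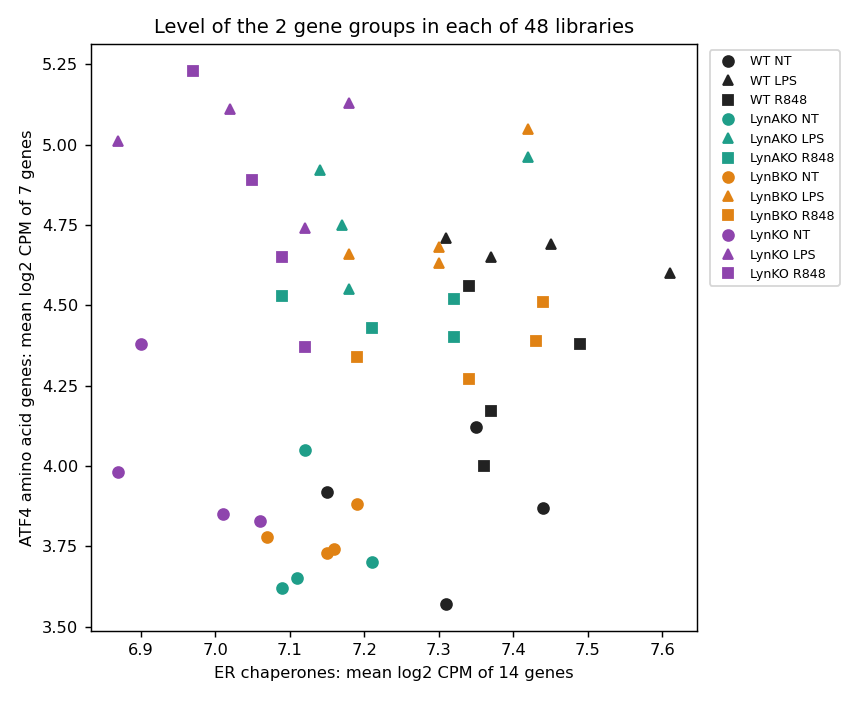
Mean log2 CPM of the 14 ER chaperones (x axis) against that of the 7 ATF4 amino acid genes (y axis) in the 48 libraries, marked by genotype and treatment. LynKO libraries lie to the left of WT libraries of the same treatment on the x axis (with R848, means of 7.06 and 7.39). With LPS they also lie higher, while with R848 LynKO mouse 2 lies below 2 of the WT libraries on the y axis.

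Other measures moved with the LynKO difference. The summed macrophage markers were lower in LynKO with LPS as well (24300 to 28400 against 35700 to 43100 CPM) and with R848 (23300 to 28700 against 36200 to 40100). Lyz2 had the highest median of the 8 over the 48 libraries, 22800 CPM, where their summed median was 34000 CPM. The 9 neutrophil markers summed to 12.4 to 19 CPM in untreated LynKO and 24.8 to 51.4 in WT. Over the 48 libraries Mmp8 had the highest median of them, 23.9 CPM, and Ly6g a median of 0. Plasma cells are known for high chaperone levels, and 6 B and plasma cell markers, in which Ighm had the highest level, summed to 9.54 to 12.5 CPM in untreated LynKO and 16.9 to 24.8 in WT. With LPS they summed to 8.26 to 12.8 against 14.5 to 17.5 CPM, and with R848 to 7.75 to 11.2 against 11 to 16.1. Of this list Jchain and Mzb1 had a median of 0 over the 48 libraries. The part of the macrophage, neutrophil and B cell markers in the chaperone difference was not tested.

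Neither isoform knockout reached the threshold for any member. LynAKO against WT gave 0 calls with NT, LPS and R848 (0.0286%, 0.0215% and 0.00715% of all genes), and 14, 8 and 5 members had an unadjusted p under 0.05 by edgeR. LynBKO gave 0 calls with each treatment (0.0644%, 0.0358% and 0% of all genes), and 11, 2 and 1 members had an unadjusted p under 0.05. The percentages are for adjusted calls. The share of all genes with an unadjusted p under 0.05 is not given, so the unadjusted counts show nothing particular to the members. DESeq2 called 0 members in 5 of these comparisons and 2 in LynBKO without ligand. The untreated LynBKO comparison also called 2 members when WT mouse 3 was left out and 0 without the LynBKO library that held both sex markers. The chaperone medians were -0.21, -0.21 and -0.15 in LynAKO and -0.19, -0.14 and -0.05 in LynBKO, against -0.32 or below in LynKO. Manf had the lowest adjusted p of the members in untreated LynBKO (-0.28 ± 0.08, adjusted p = 0.179), and Hspa5 gave -0.25 ± 0.09 in untreated LynAKO and -0.23 ± 0.09 in untreated LynBKO. The amino acid medians were -0.03, 0.18 and 0.16 in LynAKO and -0.09, 0.05 and 0.08 in LynBKO. All 3 knockouts were compared with the same WT libraries, so these values are not independent, and LynAKO and LynBKO were not tested against LynKO.

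Whether a knockout altered the ligand response itself was tested as the difference of the responses over all 48 libraries. By edgeR no member passed in any of the 6 comparisons. For LynAKO and LynBKO 0% of all genes passed with LPS and 0% with R848, and for LynKO 0.100% passed with LPS and 0.193% with R848. The members with an unadjusted p under 0.05 were 1 and 2 in LynAKO, 1 and 1 in LynBKO, and 2 and 5 in LynKO, and DESeq2 called none. Here too the share of all genes at that unadjusted threshold is not given. In LynKO the Hspa5 responses differed from those of WT by 0.04 ± 0.15 with LPS and -0.03 ± 0.15 with R848. The R848 response of Slc7a5 differed by 1.04 ± 0.42 (adjusted p = 0.403) and that of Sesn2 by 0.67 ± 0.20 (adjusted p = 0.214). With the mouse as a block 2 members passed with R848 in LynKO, Edem1 (-0.28, adjusted p = 0.0148) and Sesn2 (0.66, adjusted p = 0.0441). Without the 2 untreated libraries that held both sex markers 0 members passed in each of the 6 comparisons.

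Other genes of the same pathways were read from lists drawn up by known function. Of 39 further unfolded protein response and secretory genes, 17 were higher (43.6%, against 31.5% of all genes) and 5 lower (12.8% against 30.0%) with LPS in WT cells. With R848 19 were higher (48.7% against 30.0%) and 2 lower (5.13% against 26.7%). Ero1l, the oxidase that feeds disulfide isomerases, rose by 1.62 ± 0.13 and 1.84 ± 0.13, and Serp1, a translocon protein, by 1.12 ± 0.09 and 1.36 ± 0.09. In LynKO cells 5, 5 and 4 of the 39 were lower with NT, LPS and R848 (against 4.47%, 4.06% and 2.74% of all genes) and none was higher, Serp1 without ligand among them (-0.35 ± 0.09, adjusted p = 0.0134). The share lower, against 10, 8 and 8 of the 14 chaperones, was given no test.

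Of 33 further ATF4 and amino acid response genes tested, 15 were higher (45.5%, against 31.5% of all genes) and 10 lower (30.3% against 30.0%) with LPS in WT cells. With R848 13 were higher (39.4% against 30.0%) and 6 lower (18.2% against 26.7%). Slc7a11, the cystine transporter, rose by 5.16 ± 0.26 and 5.39 ± 0.26, and Slc38a2, a neutral amino acid transporter, was lower with LPS (-0.97 ± 0.14, adjusted p = 6.92e-06). In untreated LynKO cells 0 of these genes were higher and 6 lower than in WT, against 5.43% and 4.47% of all genes. With LPS 3 were higher and 3 lower (4.43% and 4.06% of all genes), and with R848 3 and 3 (3.19% and 2.74%). The called genes thus shared a direction, lower, without ligand only. Slc7a11 was lower with each treatment (-1.49 ± 0.18, -1.05 ± 0.19 and -1.06 ± 0.26; adjusted p = 2.55e-05, 0.0016 and 0.0223). Slc1a5, a glutamine transporter, was higher with LPS (0.41 ± 0.09) and R848 (0.58 ± 0.12), as was Aldh18a1, of proline synthesis (0.93 ± 0.15 and 0.83 ± 0.15). Slc7a5 and Slc7a11, both transporters that ATF4 is known to drive, thus lay on opposite sides of WT in LynKO cells with R848.

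Among 15 genes of eIF2, its kinases and its phosphatase, 7 were higher (46.7%, against 31.5% of all genes) and 5 lower (33.3% against 30.0%) with LPS in WT cells. With R848 6 were higher (40% against 30.0%) and 3 lower (20% against 26.7%). Eif2ak2 (PKR, the kinase that senses double-stranded RNA) rose with LPS by 2.08 ± 0.08 and was lower with R848 than with LPS (-1.62 ± 0.08, adjusted p = 1.2e-10). Ppp1r15b, the constitutive partner of the eIF2 phosphatase, rose by 2.14 ± 0.09 and 1.52 ± 0.09, alongside Ppp1r15a. In LynKO cells 1, 1 and 1 of the 15 passed with NT, LPS and R848.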

How the data were processed

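RNA was measured as poly-A-selected, paired-end RNA-seq. The authors deposited 1 table of raw counts per gene for the 48 libraries, and a table of variance-stabilised log2 values, deposited by the authors and used here only to check that the same genes and libraries were held. The submitters' processing notes name Trimmomatic 0.36, STAR 2.5.2b, featureCounts of Subread 1.5.2, DESeq2 and build GRCm38, while the annotation release and strand setting were not given in the sources used here. Reads of overlapping or antisense genes may therefore be shared. Gene symbols came from GENCODE M21, which matched 49056 of 49315 identifiers. No read was counted in any library for 17515 genes.

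Counts were tested with edgeR 4.0.16 in R 4.3.3 by the quasi-likelihood test, with TMM factors and a filter (minimum count 10, minimum total 15) over the 12 groups. The 12 libraries of a genotype entered each ligand comparison, the 16 of a treatment each genotype comparison, and response differences all 48. P-values were adjusted by Benjamini-Hochberg over all 13986 genes of a comparison, with a threshold of 0.05. Library totals of 14974764 to 23321447 limit the precision of the low genes. CPM values are scaled by TMM. The script was tested on simulated data. DESeq2 1.42.0, other size factors, no filter, 1 model for all libraries, a sex term, a block for replicate number, prior counts and leaving out each mouse were the alternatives, and scaling by library totals was added after seeing the data.

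Members and lists were chosen with earlier results of these data known. All 37 members could be named, by role, with values per library for those called with the 3 largest changes of a role in LPS against NT in WT or in untreated LynKO against WT. Of each further list, genes were named from the 3 largest called changes each way with a mean of at least 5 CPM. In WT, LynAKO and LynKO cells, libraries of the same number deviated together from their group means (correlations of 0.11 to 0.42), as libraries of the same mouse. In LynBKO the untreated libraries did not pair with the treated ones (-0.21 to 0.19). Across genotypes the numbers are different mice. Values are from 1 culture per mouse and treatment, and p-values measure the spread between mice. Promoter windows are from RefSeq (GRCm38.p6), with none held for Atf6, Manf, Hyou1 and Slc7a5. 1 marker of the B and plasma cell list is not reported here.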

Additional observations from a re-analysis of the deposited data

Results flagged for a closer look

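Groups of 4 libraries were checked for 1 library standing far from the other 3 (a Dixon test of its gap over the group's range), for the 21 members described in most detail and the chaperone minus amino acid level. Of 264 groups 22 held such a library, where chance gives about 1 in 20. In LynKO mouse 4 these were Chac1 untreated (0.58 CPM) and with LPS (2.45 CPM), Ddit4 with LPS (55.5 CPM) and R848 (37 CPM), all high, and Edem1 with R848 (246 CPM), low. In WT with LPS mouse 1 stood high for Manf (155 CPM), Syvn1 (106 CPM) and Sesn2 (7.58 CPM). Other WT libraries were mouse 3 for untreated Ern1 (110 CPM) and mouse 4 for Manf with R848 (109 CPM). In LynBKO with LPS mouse 1 stood high for Herpud1 (75.2 CPM), Mthfd2 (39.7 CPM) and Dnajb9 (23.8 CPM), mouse 2 stood low for Sesn2 (3.79 CPM), and mouse 1 stood high with R848 for Ddit4 (27.2 CPM). In LynAKO the libraries were mouse 1 for Ddit4 with LPS (51.4 CPM) and Syvn1 with R848 (50.5 CPM), mouse 2 for Pdia6 with LPS (245 CPM), and mouse 4 for untreated Dnajb9 (30.4 CPM) and Sesn2 with LPS (4.62 CPM). The chaperone minus amino acid level of untreated LynAKO mouse 1 was 3.07. With LPS, Sesn2 of LynKO mouse 2 was low (5.33 CPM). The LynKO calls that end without mouse 4 stand beside their values above.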

How the results depend on the processing

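Refits of the member values over all 27 comparisons, other than with library totals, left the call unchanged 12305 times. They lost a call 229 times, gained one 157 times and reversed the sign of a called value 0 times. Values called in neither fit count as unchanged whatever their sign. Sign changes of WT ligand values called on neither scale were not counted. Of the others, scaling by library totals reversed 19, by the shift of the whole scale. With LPS these were Atf6 (-0.35), Xbp1 (-0.28), Hsp90b1 (-0.39), Calr (-0.40), Canx (-0.27), Pdia3 (-0.51), Pdia6 (-0.12), Dnajb11 (-0.30), Creld2 (-0.42), Hyou1 (-0.33) and Slc3a2 (-0.10), and with R848 Xbp1 (-0.34), Hsp90b1 (-0.18), Calr (-0.31), Canx (-0.04), Pdia3 (-0.35), Pdia6 (-0.14), Dnajb11 (-0.22) and Hyou1 (-0.04). For LynKO against WT with R848 library totals called 9 members and no filter on low counts called 22, against 14. Without the filter 1 member was called in untreated LynAKO against WT, 3 in untreated LynBKO and 3 for the R848 response of LynKO minus that of WT, and DESeq2 called 2 in untreated LynBKO. Leaving out 1 mouse gave 7 to 11 members for R848 against LPS in WT, 7 to 13 in LynAKO, 9 to 13 in LynBKO and 4 to 11 in LynKO. It gave 0 to 2 for untreated LynBKO against WT, 8 to 14 for LynKO against WT with LPS (8 without LynKO mouse 4, 9 without WT mouse 1) and 9 to 13 with R848 (9 without LynKO mouse 4). The cause of these changes was not tested. With the mouse as a block, the R848 response of LynKO minus that of WT gave 2 members. With the replicate number as a block, LynKO against WT gave 15, 18 and 19 with NT, LPS and R848. In that comparison the numbers are different mice, and no call was lost. Within genotypes the mouse block gained 26 calls, given above, and ended 1, Shmt2 with R848 in LynBKO (adjusted p = 0.0537), where untreated and treated libraries did not pair. Few reads limit Chac1, with 2 to 7 in untreated WT libraries.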
